A study of Mus musculus with 4 samples.

Results

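The 10 genes described here encode CTCF and the cohesin complex with its loader and release factors: Ctcf, Smc1a, Smc3, Rad21, Stag1, Stag2, Nipbl, Wapl, Pds5a and Pds5b. They were taken from 21900 protein-coding genes with a position in the RefSeq table of mouse assembly GRCm38.p6. They were chosen by name, not by any measured value, but with earlier results of these data known. Their accessible regions were taken within 1000 bp of either annotated end of the gene (the gene end) and over the gene with 10 kb on each side. Over the genes with these flanks lay 13 of 15215 regions called in wild type (WT) and 10 of 7645 regions called in knockout (KO).

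CTCF is a zinc finger protein that binds insulator and loop anchor sites in DNA. Cohesin is a ring built from SMC1A, SMC3 and RAD21 with either STAG1 or STAG2, which holds sister chromatids together and extrudes chromatin loops until it meets bound CTCF. NIPBL loads the ring and drives extrusion, WAPL opens it, and the PDS5 proteins bind the ring and take part in both its release and its maintenance. In CD4+CD8+ double-positive (DP) thymocytes, the stage that rearranges the T cell receptor alpha locus, cohesin and CTCF are known for shaping loops over that locus.

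ATAC-seq, which tags open DNA with a transposase, was run on DP thymocytes sorted by CD4 and CD8 from the thymus of C57BL/6 mice, 50000 cells per sample. WT mice carried loxP-flanked Chaf1b alleles on both chromosomes and no Cre, and KO mice carried the same alleles with Cd4-cre, so that loss of this chromatin assembly factor 1 subunit and the presence of Cre cannot be told apart. Cd4-cre uses regulatory DNA of Cd4 and acts in thymocytes. The 4 samples were 2 replicates per genotype, but the deposited lists pool the replicates, so there was 1 list per genotype, no replicate error and no test between genotypes. Age and sex are not given in the sources used here.

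Relative to WT, the KO list had a depth of 0.752, judged from the background of 1.37 reads in WT and 1.03 in KO. A region missing from the KO list was therefore not called there, which does not show that the site was closed, and the part of depth in such differences was not tested. In bulk lists, a site open in fewer cells and a site less open in each cell cannot be told apart. Chaf1b had a gene-end region in both lists, at folds of 5.60 in WT and 5.74 in KO, which does not check the deletion because the loxP positions were not given. Among 10 DP marker genes, 6 were called at an end in WT (34.6% of all protein-coding genes were) and 1 of these 6, Cd8b1, also in KO (16.7%, beside 59.4% of all genes called in WT), while Cd4, Cd8a, Cd3e and Tcf7 had no gene-end region in either list. The only B cell marker called at an end of 5 was Ebf1, in WT, and the 5 myeloid, 4 erythroid and 5 stromal and epithelial markers had 0 there in either list. Over genes with 10 kb flanks, the 10 DP markers held 14 WT and 4 KO regions. The 5 B cell markers held 6 in WT and 1 in KO, the 5 myeloid 2 and 1, and the 4 erythroid 4 and 3. The 5 stromal and epithelial markers held 0 in either list. Over all 21900 protein-coding genes with such flanks lay 12412 WT and 6342 KO regions.

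Of the 10 genes, 5 were called at an end in WT (34.6% of all protein-coding genes were) and 4 in KO (21.1% of all). Ctcf, Smc1a, Smc3 and Pds5b were called in both lists and Stag2 in WT only. Thus 4 of 5 with a WT region also had one in KO (exact Clopper-Pearson 95% interval 28.4 to 99.5%), where the share over all genes was 59.4%, inside that interval. None of the 10 was called in KO only, where 0.584% of all genes were. The median WT fold enrichment at these 5 genes was 5.48, below the 7.24 of all protein-coding genes with a WT region there. This holds for gene ends only, rests on 5 genes and was not tested. It leaves out the WT regions at the listed starts of Stag1 and Wapl, with folds of 9.16 and 10.7, which lay at no gene end. Fold enrichment is the authors' value at the highest point of a region, the summit, over the local background.

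The annotated ends missed several promoters. The RefSeq promoter table held 7 of the 10 genes, and it put the start of Stag1 45.7 kb and that of Wapl 1.55 kb inside the gene span. Within 1000 bp of the listed start, 6 of these 7 genes had a region, in both lists alike, against background shares of 36.8% in WT, 22.7% in KO and 59.8% for WT genes also called in KO. The exception was Pds5a, with a region in neither list. Rad21, Stag2 and Nipbl have no entry in the table and their strand was not used. With the gene-end window widened to 2000 bp, Rad21 and Wapl joined, giving 7 genes in WT and 6 in both, beside 37.5% of all genes in WT, 22.9% in KO and 59.6% of WT genes also called in KO.

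**Figure D1:**
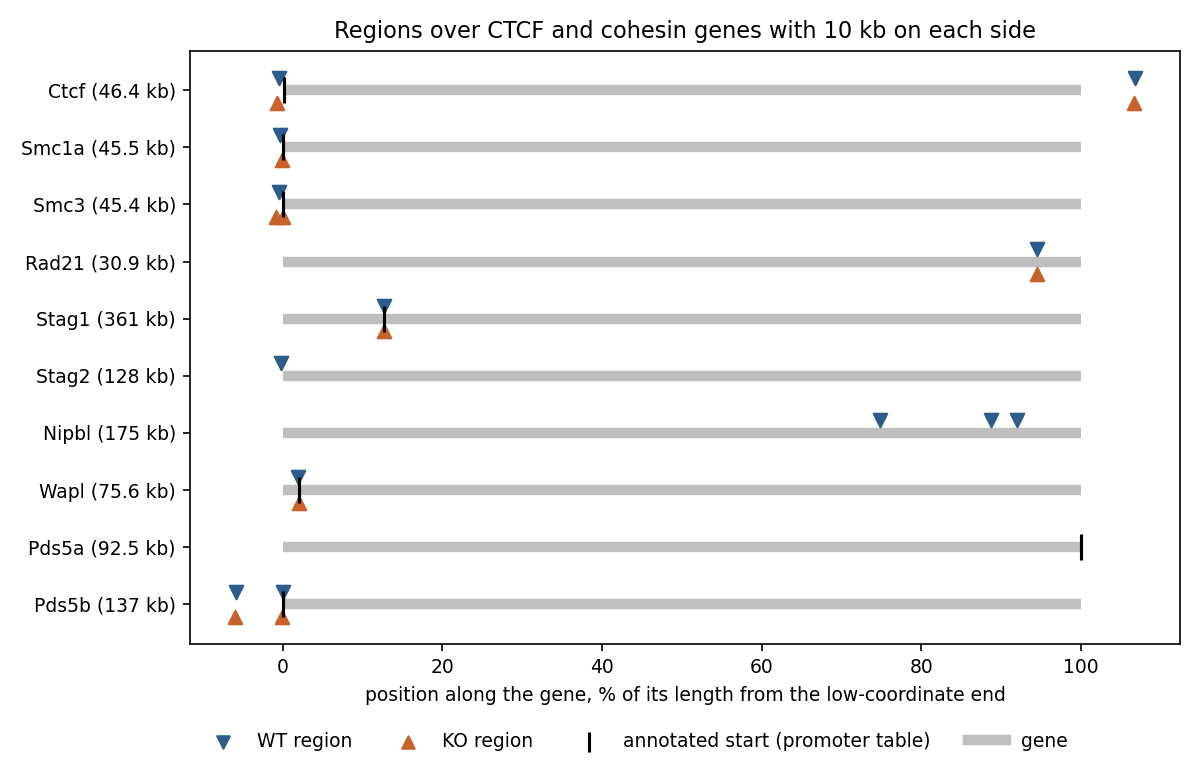
Position of each WT region (triangles above the line) and KO region (triangles below) along the 10 genes with 10 kb flanks, as a percentage of gene length from the low-coordinate end; markers show region centres and black ticks the annotated start where the promoter table has one. Stag1 carries its regions at an internal start, Stag2 and Nipbl have WT regions only, and Pds5a has none.

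Over the genes with 10 kb flanks, 9 of 13 WT regions (69.2%, 38.6 to 90.9) had an overlapping KO region, and all 10 KO regions lay on a WT region. Over all protein-coding genes these shares were 47.1% for WT regions and 93.0% for KO regions. The median fold of the 13 WT regions was 7.59, against 6.59 over all protein-coding genes, and that of the 10 KO regions 6.90, against 6.67. The 4 WT regions with no KO region were the 3 of Nipbl and the 1 of Stag2. Their folds ran from 4.33 to 7.59 with a median of 5.40, and those of the 9 overlapping regions from 3.87 to 13.5 with a median of 8.18. The ranges overlapped, but the 4 regions were weaker in the median, with 14 summit reads against 26.

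**Figure D2:**
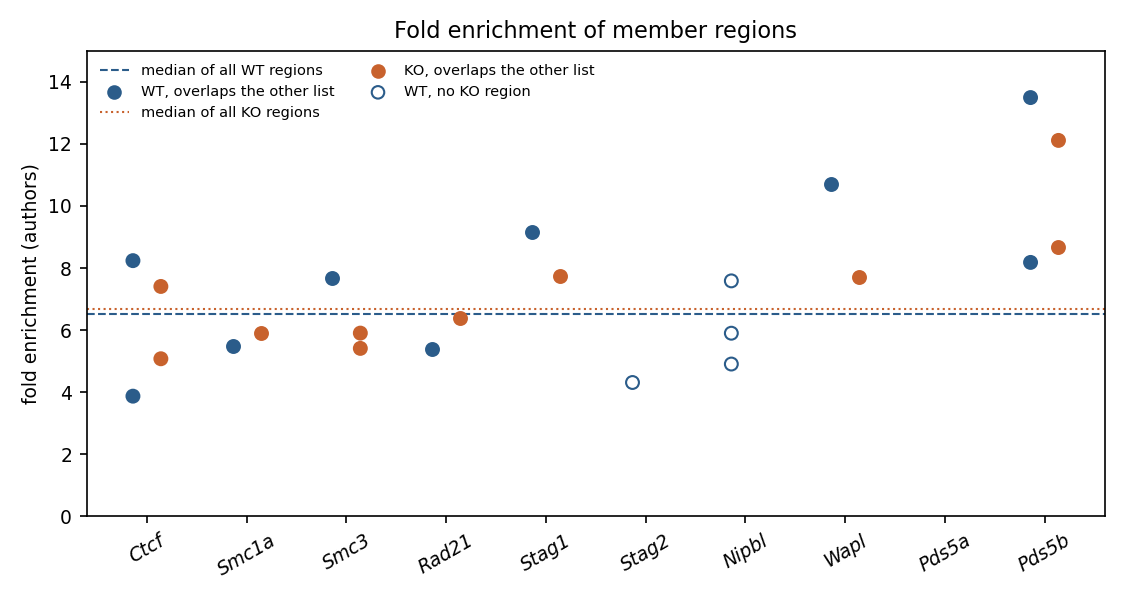
Fold enrichment (authors' values, 1 point per region) for each gene in WT and KO, with filled points for regions that overlap the other list, an open point for a WT region without a KO region, and lines at the medians of all regions, 6.52 in WT and 6.67 in KO. Values go from 3.87 at the Ctcf start in WT to 13.5 upstream of Pds5b in WT.

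Promoter sequences were taken for the genes on which the results turn: Ctcf, whose region lay at different places in the lists, Smc1a, which shares its region with a neighbour, Stag1 and Wapl, whose starts lie inside the gene span, and Pds5a, which had no region. Each is the 250 bases before the listed start, from RefSeq (GRCm38.p6), 5′ to 3′ on the strand of the gene. Capitals mark matches, on either strand, to any of the motifs given after the sequences.
Ctcf, chr8:105636288-105636537, plus strand: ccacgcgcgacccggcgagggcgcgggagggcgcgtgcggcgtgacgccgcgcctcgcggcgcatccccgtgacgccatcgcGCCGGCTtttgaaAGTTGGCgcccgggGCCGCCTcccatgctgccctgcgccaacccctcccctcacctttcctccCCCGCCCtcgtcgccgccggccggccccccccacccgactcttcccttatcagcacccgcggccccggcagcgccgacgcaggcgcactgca
Smc1a, chrX:152016178-152016427, plus strand: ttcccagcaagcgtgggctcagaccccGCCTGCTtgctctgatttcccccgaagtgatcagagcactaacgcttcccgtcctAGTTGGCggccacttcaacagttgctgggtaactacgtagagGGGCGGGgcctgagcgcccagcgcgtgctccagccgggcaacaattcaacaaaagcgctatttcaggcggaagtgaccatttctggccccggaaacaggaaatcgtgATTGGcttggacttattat
Stag1, chr9:100643198-100643447, plus strand: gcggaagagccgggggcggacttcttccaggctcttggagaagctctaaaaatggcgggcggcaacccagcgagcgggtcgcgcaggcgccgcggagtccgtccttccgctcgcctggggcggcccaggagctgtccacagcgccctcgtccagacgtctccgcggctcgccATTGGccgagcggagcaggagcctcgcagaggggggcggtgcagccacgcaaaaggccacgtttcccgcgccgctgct
Wapl, chr14:34673678-34673927, plus strand: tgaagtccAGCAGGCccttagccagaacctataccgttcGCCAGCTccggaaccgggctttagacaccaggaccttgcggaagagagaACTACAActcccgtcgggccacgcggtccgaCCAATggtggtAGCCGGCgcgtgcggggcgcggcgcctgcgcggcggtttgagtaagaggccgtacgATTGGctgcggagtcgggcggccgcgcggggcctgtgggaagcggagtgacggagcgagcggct
Pds5a, chr5:65698237-65698486, minus strand: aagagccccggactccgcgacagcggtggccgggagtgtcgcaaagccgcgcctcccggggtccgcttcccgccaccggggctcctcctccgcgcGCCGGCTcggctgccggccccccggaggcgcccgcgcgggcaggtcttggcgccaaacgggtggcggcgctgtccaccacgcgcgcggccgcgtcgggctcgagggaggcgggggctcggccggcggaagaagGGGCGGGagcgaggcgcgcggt

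The motifs searched were AGNNGGC (a core of the CTCF site), a longer CTCF form, CCGGAAG (ETS), the NRF1 palindrome, GGGCGGG (SP and KLF factors), AAGATGGCG (YY1), TGACGTCA (the cAMP response element), CCAAT (bound by NF-Y), TATAAA (the TATA box) and ACTACAA (part of a ZNF143 site). The longer CTCF form and the YY1 motif both contain the core, so each of their matches is also a core match. AGNNGGC was in 6 of the 7 member promoters, but 56.3% of 20998 promoters of protein-coding genes hold it. CCAAT or its complement was in 4 of 7 (35.3% of all), GGGCGGG in 3 of 7 (31.4%), and ACTACAA in the Wapl promoter (3.24%), at -162. The longer CTCF form (0.476% of all promoters), ETS (9.07%), NRF1 (1.08%), YY1 (0.724%), the cAMP response element (1.94%) and TATAAA (11.6%) had no match in these windows. A match is a run of letters and not a measured binding site. The 7 promoters had 16 CpG (Smc1a) to 44 CpG (Pds5a), above the median of 10 over all promoters.

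**Figure D3:**
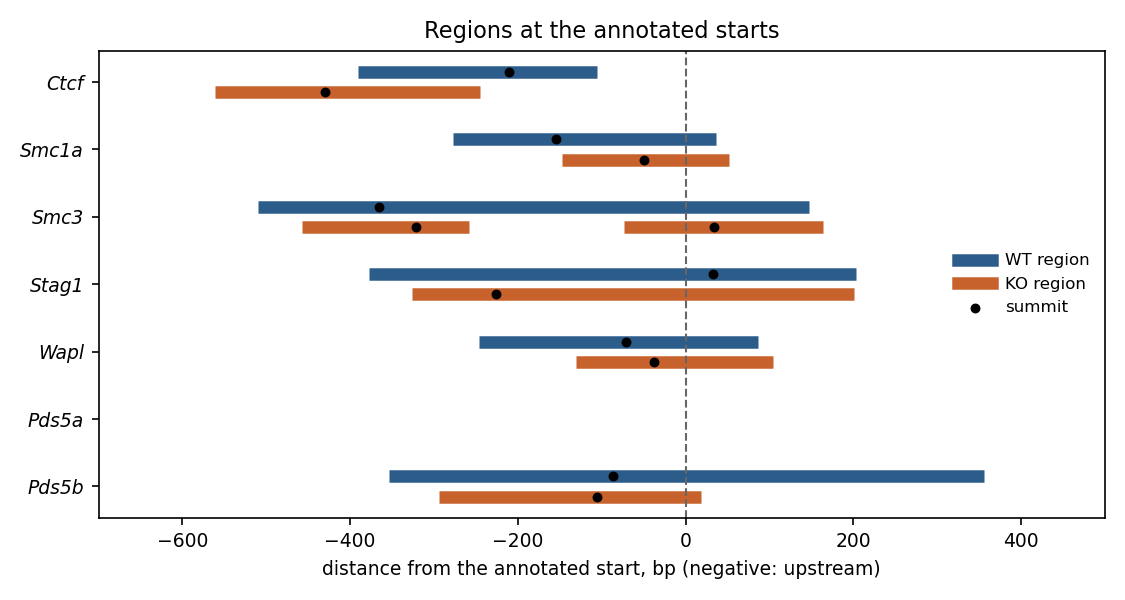
Extent of WT and KO regions (bars) and their summits (dots) around the annotated start of the 7 genes in the promoter table, in bp with negative values upstream. The Ctcf regions end 105 bp (WT) and 245 bp (KO) upstream of the start with summits 220 bp apart, Smc3 has 1 WT and 2 KO regions, and Pds5a has none.

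Of the 6 genes with a WT region at a listed start, Ctcf had the lowest WT fold there, and its fold in KO was higher. The WT region (chr8:105636147-105636433) had a fold of 3.87 with 10 reads at the summit (exact Poisson 95% interval 4.80 to 18.4), and the KO region (chr8:105635977-105636293) a fold of 7.41 with 19 reads (11.4 to 29.7). Among WT regions the WT fold stood at percentile 2.39, the share of the list with a lower fold, and among KO regions the KO fold at percentile 64.8. Percentiles come from lists of unlike length, so a difference in percentile between the lists shows no change. The KO share of the reads was 65.5% (45.7 to 82.1), where depth alone gives 42.9%. All regions matched 1 to 1 with 25 to below 40 summit reads in both lists together gave 41.0%. Scaled by depth, KO had 2.53 times the WT reads (1.12 to 6.08), and a ratio at least that high was found at 3 of the 6875 regions matched 1 to 1 between the lists, this one included.

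Both regions lay upstream of the start of Ctcf and overlapped Gm5914, a noncoding gene. They shared 147 bp, with a Jaccard index of 0.322 against a median of 0.716 over all such regions. The WT summit lay 210 bp and the KO summit 430 bp upstream of the start, and neither summit was inside the region of the other list. Over all regions matched 1 to 1 the median summit distance was 29 bp, and 4.39% had a distance of at least 220 bp. The 2 read numbers thus come from different positions. Of the printed Ctcf promoter, 146 bases lay in the WT region and 6 in the KO region. With the interval widened for the 9 pairs of member regions, the KO share ran from 38.3% to 86.9% and held the depth share.

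A second pair of regions lay 2.87 kb (WT) and 2.93 kb (KO) beyond the other end of Ctcf, at an end of Carmil2. The WT region (chr8:105685788-105686338) had a fold of 8.24 and 28 reads, and the KO region (chr8:105685853-105686146) a fold of 5.08 and 12 reads. The summits lay 316 bp apart. Its KO share of reads, 30.0% (16.6 to 46.5), was below the depth share but its interval held it. The 2 pairs around Ctcf thus leaned to opposite sides of the depth share.

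Among the ring subunits, Smc1a and Smc3, which encode the ATPase arms of the ring, had regions across their starts in both lists, and Rad21, the kleisin that closes it, had 1 inside the gene. The Smc1a region (WT chrX:152016151-152016464, KO chrX:152016281-152016480) had folds of 5.48 in WT and 5.90 in KO, with 12 (6.20 to 21.0) and 11 (5.49 to 19.7) reads. It also overlaps Ribc1 and lies within 1000 bp of an end of that gene, so it cannot be assigned to 1 of these genes. The KO share of reads was 47.8% (26.8 to 69.4), which held the depth share.

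Smc3 had 1 wide WT region where KO had 2 narrow ones. The WT region (chr19:53599886-53600543) was 658 bp wide, with a fold of 7.69, 23 reads (14.6 to 34.5) and a summit 366 bp upstream of the start. The KO regions were 200 bp (chr19:53599939-53600138, fold 5.41, 10 reads, summit 321 bp upstream) and 238 bp wide (chr19:53600323-53600560, fold 5.90, 11 reads, summit 34 bp downstream). Neither KO region spanned the 184 bp between them, which the WT region covered. The stronger KO region gave a KO share of reads of 32.4% (17.4 to 50.5), an interval that held the depth share, but its summit lay 400 bp from that of WT.

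Rad21 had a single region in each list, 1.51 kb (WT) and 1.60 kb (KO) inside the high-coordinate end of the gene and at an end of the predicted protein-coding gene Gm52217, which overlaps them. Rad21 has no listed start, so whether these regions lie at its start was not determined. The WT region (chr15:51991657-51992025) had a fold of 5.41 and 15 reads, and the KO region (chr15:51991735-51991937) a fold of 6.40 and 12 reads. The summits lay 15 bp apart, and the KO share of reads was 44.4% (25.5 to 64.7), which held the depth share of 42.9%.

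The alternative ring subunits Stag1 and Stag2 differed in what was called. Stag1 had a region across its listed start in both lists, WT chr9:100643071-100643651 and KO chr9:100643122-100643649, with folds of 9.16 (percentile 81.3) and 7.75 (percentile 69.6). Its 34 reads in WT (23.5 to 47.5) and 19 in KO (11.4 to 29.7) gave a KO share of 35.8% (23.1 to 50.2), which held the depth share. The regions had a Jaccard index of 0.909, the highest of the member pairs, and both covered all 250 printed promoter bases, although the summits were 259 bp apart.

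Stag2, on chromosome X as is Smc1a, had a weak WT region 63 bp outside its low-coordinate end (chrX:42148986-42149234) and none in KO. The fold was 4.33 (percentile 6.62) with 10 reads (4.80 to 18.4). At KO depth 10 reads correspond to 7.52, and the lowest read number of a KO region at the genome background was 7. Of WT regions in the same decile of folds, 13.8% overlapped a KO region. Among protein-coding genes with 1 WT region in gene and flanks, 46.7% had it in WT only.

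Nipbl, the loader gene, had the most WT regions of the 10 genes and no KO region. All 3 lay inside the gene, 13.9 to 44.1 kb from its high-coordinate end, and none was at a gene end. The strongest (chr15:8451143-8451417) had a fold of 7.59 (percentile 65.9) and 17 reads (9.90 to 27.2). The next (chr15:8421001-8421250) had a fold of 5.90 and 13 reads (6.92 to 22.2), and the third (chr15:8445416-8445615), at an end of the predicted gene LOC102634078, 4.91 and 15 reads (8.40 to 24.7).

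At KO depth these reads correspond to 12.8, 9.77 and 11.3, all above 7, the lowest read number of a KO region at the genome background. The third region had a local background of 2.26 reads in WT, above the 1.37 of the other Nipbl regions. In the deciles of folds that hold the 3 Nipbl regions, 57.2%, 25.8% and 15.3% of all WT regions overlapped a KO region. Of the 921 protein-coding genes with 3 WT regions in gene and flanks, 20.1% had none that overlapped a KO region. Those were 185 genes, Nipbl included. With the WT list limited to the length of the KO list by fold, 1 of the 3 regions remained, the strongest one.

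**Figure D4:**
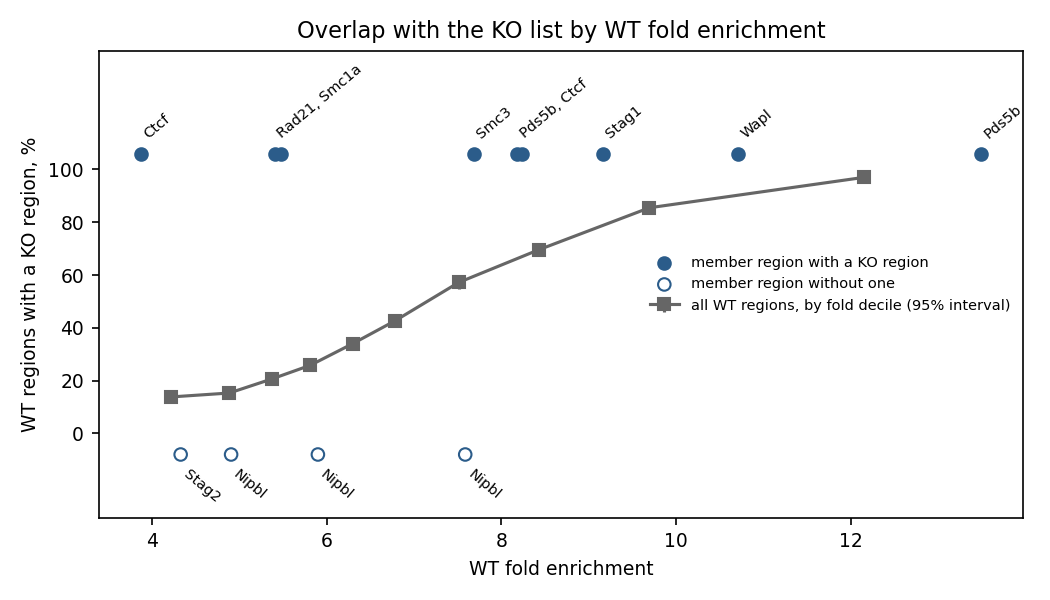
Share of all WT regions that overlap a KO region in each decile of WT fold enrichment (squares at the median fold, bars 95% exact intervals, mostly smaller than the symbols), with member WT regions placed at their fold above the axis range if they overlap a KO region and below it if not; their heights carry no value. The share goes from 13.8% to 97.0%, and the 4 regions without a KO region lie at folds of 4.33 to 7.59.

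Wapl, which encodes the protein that opens the ring, had the highest WT fold of a member start. The WT region (chr14:34673682-34674014) had a fold of 10.7 (percentile 90.5) and 32 reads (21.9 to 45.2), and the KO region (chr14:34673797-34674032) a fold of 7.72 (percentile 69.2) and 20 reads (12.2 to 30.9). The summits were 33 bp apart, 71 bp and 38 bp upstream of the listed start. The KO share of reads was 38.5% (25.3 to 53.0), which held the depth share. The printed promoter had 246 bases in the WT region and 131 in the KO region, and the noncoding gene 5830448L01Rik overlaps both.

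The paralogs Pds5a and Pds5b differed in what was called. Pds5b had a region at its start in both lists, WT chr5:150673473-150674183 with a fold of 8.18 and 26 reads and KO chr5:150673533-150673845 with a fold of 8.66 and 21 reads. The summits were 19 bp apart, but the WT region was 711 bp wide and the KO region 313 bp, with the WT region reaching 356 bp past the listed start and the KO region 18 bp. The predicted gene Gm40353 overlaps both. The KO share of reads was 44.7% (30.2 to 59.9), which held the depth share.

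The strongest regions near any of the 10 genes lay 7.67 kb (WT) and 7.77 kb (KO) before Pds5b, at an end of N4bp2l2. They had folds of 13.5 in WT (chr5:150665277-150666041, 50 reads, percentile 97.3) and 12.1 in KO (chr5:150665307-150665939, 38 reads, percentile 96.0). Their summits were 1 bp apart and the KO share of reads was 43.2% (32.7 to 54.2), close to the 42.9% of depth alone.

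Pds5a had no region in either list over its 92.5 kb with 10 kb on each side, as had 47.4% of all protein-coding genes. Its promoter window was the most GC-rich of the 7, at 80.4%, with 44 CpG (percentile 99.3). This property was looked at after the values were seen. The windows of Ctcf (77.6% GC, 40 CpG) and Pds5b (75.6% GC, 36 CpG) came next, and both genes had a region at the start in both lists. Of the 335 promoters with at least 80% GC, 39.1% had a WT region within 1000 bp of the start and 16.1% a KO region, against 55.8% and 34.0% of the 1491 promoters with 70 to 75% GC. Below 50% GC the shares were 12.7% in WT and 6.59% in KO, and at 50 to 60% GC 36.4% and 21.9%. At 60 to 70% GC they were 55.6% and 36.3%, and at 75 to 80% GC 50.4% and 29.6%. The shares were thus lower at both extremes of GC than at 70 to 75%, no difference between bins was tested, and the part of GC content in the missing region was not tested.

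Over the 9 pairs of overlapping regions, the KO reads made up 41.5% of 393 summit reads (36.6 to 46.5), and the depth share of 42.9% lay inside. Scaled by depth, the KO to WT ratio was 0.943 (0.766 to 1.16) in sum and 1.01 in the median pair, against a median of 0.871 over all 6875 regions matched 1 to 1. In 5 of the 9 pairs the ratio was above 1 and in 4 below, where 31.3% of all regions matched 1 to 1 were above 1. The summits of a pair lay a median of 105 bp apart, 4 of the 9 within 100 bp, so that the reads of the other pairs, and with them the sum, were not taken at the same position. The interval of 8 pairs held the depth share, and that of the pair at the Ctcf start lay above it, as did 0.858% of all such regions, while 2.84% lay below. The counts are small, reads without molecular identifiers are not independent molecules, and the intervals cover counting error only. The depth share was also not the share of typical regions at each read number. Over all regions matched 1 to 1, the KO share was 45.6% below 25 summit reads in both lists together. It was 41.0% at 25 to below 40 reads, 37.9% at 40 to below 60 and 38.6% at 60 to below 100.

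**Figure D5:**
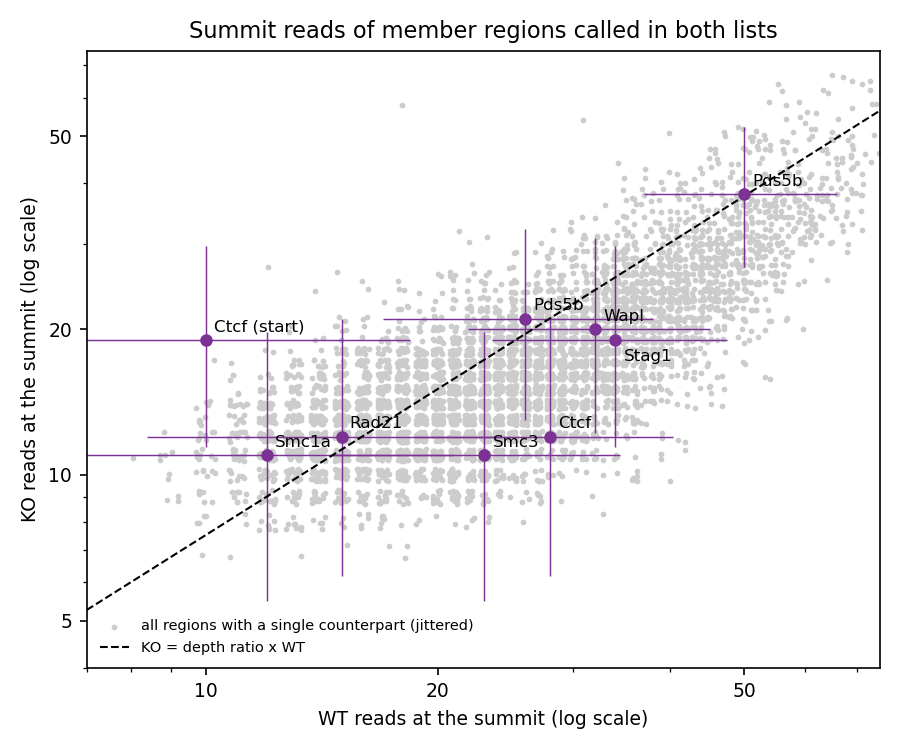
Reads at the summit in WT and KO (log axes) for the 9 pairs of member regions, with exact Poisson 95% intervals, over all regions matched 1 to 1 (grey, jittered), with a dashed line where KO equals 0.752 times WT. The pair at the Ctcf start, with 10 and 19 reads, lies farthest above the line, and the Pds5b pair with 50 and 38 reads lies on it.

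Other genes of the pathway were taken from lists chosen with earlier results of these data known. Of 18 cohesin regulators, 11 were called at an end in WT, 5 of them also in KO, and 0 were called in KO only. Over all genes 34.6% were called in WT and 0.584% in KO only, and the share of WT genes also called in KO was 45.5% in this list, 59.4% over all genes. In both lists were Esco2 (WT fold 10.2), an acetyltransferase of SMC3 in S phase, Dscc1 (8.12), a subunit of an alternative clamp loader, and Esco1 (7.82), the paralog of Esco2. In WT only were Haspin (5.90), a mitotic histone H3 kinase, Ddx11 (5.67), a helicase, and Espl1 (5.48), the separase that cuts RAD21. Mau2, the partner of NIPBL in loading, was also in WT only (4.48) and is named because of that role, after its value was seen.

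Of 15 genes of condensin, the SMC5/6 complex and Smchd1, 14 were called at an end in WT and 5 of these also in KO (35.7%), beside 34.6% and 59.4% over all genes. The condensin genes Ncapg2 (WT fold 11.7), Ncapg (11.1) and Ncapd2 (8.84) were in both lists, and the condensin gene Ncaph2 (6.99) and the SMC5/6 genes Nsmce3 (6.64) and Nsmce2 (6.59) in WT only. Of 15 other factors of chromosome architecture, 12 were called in WT and 8 of these also in KO (66.7%), beside the same shares over all genes. Zfp143 (12.9), a zinc finger protein, Chd8 (12.3), a remodeller that binds CTCF, and Parp1 (8.57) were in both lists, and Top2a (7.94), Patz1 (5.66) and Satb1 (5.56) in WT only. Of 6 germline genes, among them the meiotic cohesin subunits Rec8 and Stag3, the CTCF paralog Ctcfl and the meiotic kinetochore gene Meikin, 0 had a gene-end region in either list, and over these genes with 10 kb flanks lay 4 WT and 3 KO regions. No difference between these lists was tested.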

How the data were processed

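ATAC-seq was measured in 4 samples, and the authors deposited 1 peak list per genotype, made from both replicates per the labels. Per the submitters' processing notes, MACS2 2.1.4, Bowtie2 and deepTools 3.4.1 were among the tools, with build mm10. Read shift, duplicate removal and thresholds are not given in the sources used here. Each deposited line holds a score, a fold enrichment (a ratio) and -log10 values of p and q.

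Reads at each summit were solved from the deposited fold and -log10 p, as (reads + 1) / (background + 1) and a Poisson tail. They were whole within 0.05 on 100% of lines, and the most frequent background gave the relative depth. Overlap was at least 1 bp, and gene positions came from RefSeq GRCm38.p6, the assembly behind mm10. Intervals are exact at 95%. No test between groups was possible. Members and lists were chosen with earlier results of these data known. All 10 members were named; of each other list, the rule named genes called in KO only and the 3 highest WT folds among those in both lists and in WT only. Of the planned DP markers, 1 is not reported here. Solver and overlap were tested on simulated data, with 2000 of 2000 simulated read numbers and 7560 of 7560 regions recovered. The read numbers were simulated with the formula that is solved, and the regions were a slightly shifted copy of WT regions. Both tests thus check the code and not the deposited values. Windows, flanks, q thresholds, overlap rules, list length, ranking and depth were varied. Computation used scipy 1.17.1 and pandas 2.3.3 in Python 3.11.15, and plots matplotlib 3.10.9.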

Additional observations from a re-analysis of the deposited data

How the results depend on the processing

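At gene ends, 5 members were called in WT and 4 in KO, 4 of them shared, with 1 in WT alone and 0 in KO alone. With a -log10 q of at least 5 there were 3 in WT, 0 in WT only and 1 in KO only. With at least 10 there were 2 in WT and 2 in KO, 1 of them shared, and 1 called in KO alone. Limiting the WT list to the length of the KO list gave 2 in WT, 2 shared, 0 in WT alone and 2 in KO alone. Over all protein-coding genes, calls in KO alone also rose strongly with this limit, to 942 genes, so that rise is not particular to the members. They rose slightly over all genes with a -log10 q of at least 5, to 137, and fell with at least 10, to 52. WT calls over all 21900 genes fell in each of these settings. They were 6730 with at least 5, 4338 with at least 10 and 4730 with the limited list. In the same order, KO calls were 3894, 1852 and 4624. The share of WT genes also called in KO was 55.8%, 41.5% and 77.8%, beside 59.4% in the main setting. A window around listed starts gave 0 in WT only, and leaving out the X-linked members, added after the data were seen, gave 3 in WT and 0 in WT only. Both remove Stag2 by construction, since it has no listed start and is X-linked, so the 0 was fixed by the choice. Over genes with 10 kb flanks (13 WT and 10 KO regions, 9 overlapping), a flank of 50 kb gave 23 WT regions, and no flank 6 KO regions. A -log10 q of at least 10 gave 7, 5 and 4, the limited WT list 7 WT regions, and leaving out ends of other protein-coding genes 8, 6 and 5. The number of overlapping regions fell to 6 where the WT summit had to lie inside the KO region or the overlap had to be reciprocal at 50%. That is 46.2% of the same 13 WT regions, and no share over all genes is given for these rules. The median percentile of member gene-end regions was 27.4 in WT and 47.3 in KO by fold and 20.1 and 44.3 by -log10 q. These ranks come from lists of unlike length and from 5 genes in WT and 4 in KO, so they show no change between genotypes. The cause of the shifts between settings was not tested, except that stricter thresholds leave fewer regions. The scaled read ratio of 0.943 was 0.928 with depth from the median background and 0.914 without the Ctcf pairs, which was added after the data were seen. No paired analysis was possible because each list pools both replicates, and for the same reason no replicate could be left out. At 10 to 50 reads per summit, depth limits every single-region comparison.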

Other observations

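Farther out, within 50 kb of the 10 genes, 23 WT and 12 KO regions were called, and 10 WT regions overlapped a KO region (43.5%, 23.2 to 65.5). No share over all genes is given for this flank, so that share has no background beside it. Upstream of Wapl, just past the 10 kb flank, lay 2 neighbouring WT regions. The one 10.6 kb away (chr14:34661536-34661796, fold 5.33, 17 reads) overlapped a KO region (chr14:34661597-34661796, fold 5.91, 14 reads), and the one 10.2 kb away (chr14:34661915-34662162, fold 6.55, 21 reads) had none. The stronger of these neighbours in WT was thus the one without a KO region. They lie in deciles of WT folds of which 20.6% (10.6 kb away) and 42.7% (10.2 kb away) overlapped a KO region.

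Before Ctcf, 5 WT regions lay 13.1 to 39.8 kb away, inside or at an end of Ripor1, with folds of 4.62 to 8.12, and 0 of them overlapped a KO region. The strongest (chr8:105604872-105605318) had 24 reads and lies in a decile of WT folds of which 69.6% overlapped a KO region. The other 4 lie in deciles of which 13.8%, 20.6%, 20.6% and 25.8% did, so a missing KO region is the usual case there. The KO region near Pds5a, 26.5 kb beyond its start (chr5:65724708-65724921, fold 5.31, 11 reads), was the only KO region within 50 kb of any of the 10 genes that overlapped no WT region.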
